A study of Mus musculus with 11 samples.

Results

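The 10 genes described here are markers of fibroblasts and mesenchymal cells: Fn1, Fbn1, Postn, Lox, Tgfb2, Twist1, Snai2, Prrx1, Vim and Thy1. They were chosen by name, with earlier results of these data known, out of 22367 protein-coding genes of the GENCODE vM1 annotation of mm9 on chromosomes 1 to 19, X and Y. Lox and Tgfb2 are also named in the study itself for their promoters in MEFs, so that their promoter ratios are not independent of the choice. The same list has a gene written Fib1, which could be Fbn1 and was not resolved here. The study names Thy1 as well, citing high MacroH2A1, not MacroH2A2, at this gene in MEFs and near absence in ES cells. All 10 were found in the annotation, and none lay in the 100 kb tiles with the top 1% of anti-HA signal without induction, which were set aside. For each gene, interval midpoints were counted within 600 bp of the transcription start site (TSS), over the annotated gene body, and over the 50 kb upstream and downstream of it.

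The study asked where the histone variant MacroH2A2 sits, and how fast it is replaced, in mouse embryonic stem (ES) cells and in mouse embryonic fibroblasts (MEFs). The measurements are 11 ChIP-Seq libraries, 1 for each condition. HA-tagged MacroH2A2 (HA-Macro) was mapped with an anti-HA antibody in ES cells without doxycycline (Dox) and after 3, 6 and 12 h of Dox at 2 µg/mL, and in MEFs after 3, 6 and 12 h. HA-H3.3 was mapped in ES cells after 3 and 6 h, and total MacroH2A2 was mapped in ES cells and MEFs with an antibody against it (anti-MacroH2A2). The tagged lines derive from KH2 ES cells of strain 129 X C57bl/6, with M2rtTA at ROSA26 and the inducible histone cassette downstream of Col1a1, so that the no Dox control carries the same alleles as the induced cells. ES cells were grown on feeder fibroblasts that were depleted by pre-plating, and the HA-Macro MEFs, used at passage 2, came from chimeric embryos in which host cells were removed by drug selection. Residual feeder or host cells were not measured, and since no expression is read out here the labelled cell types could not be checked against marker levels. The labels of the anti-MacroH2A2 libraries name parental KH2 ES cells and wild type MEFs, no treatment and 2 replicates combined in each, but the study's text describes anti-MacroH2A2 data from the HA-Macro lines with and without Dox. Which cells and Dox state these 2 libraries hold is therefore not settled here, and only the antibody and the cell type were used. In bulk chromatin, fewer cells with the variant at a locus and less of it per cell cannot be told apart.

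MacroH2A2 is an H2A variant that carries a large globular macro domain, and it is best known from silent chromatin such as the inactive X chromosome. H3.3 is a replacement variant of H3 that is placed at active promoters and gene bodies outside of DNA replication. Fibroblasts are the main builders of connective tissue: they secrete matrix proteins, respond to TGF-beta, and are specified by transcription factors that also drive the epithelial to mesenchymal transition, whereas ES cells resemble early epiblast.

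The secreted matrix genes are Fn1 (chr1:71632094-71699774, minus strand), which encodes the adhesive glycoprotein fibronectin, Fbn1 (chr2:125126330-125333729, minus strand) for the microfibril protein fibrillin, Postn (chr3:54165031-54194961, plus strand) for the matricellular protein periostin, and Lox for the oxidase that starts cross-linking of collagen and elastin. Tgfb2 (chr1:188447065-188529871, minus strand) encodes a TGF-beta ligand. The transcription factors are Twist1 (chr12:34642536-34644682, plus strand), a basic helix-loop-helix factor, Snai2 (chr16:14705945-14709488, plus strand), a zinc finger repressor of epithelial genes, and Prrx1 (chr1:165175247-165243841, minus strand), a homeobox factor of limb and craniofacial mesenchyme. Vim (chr2:13495554-13504453, plus strand) encodes the intermediate filament protein vimentin, and Thy1 (chr9:43851467-43856662, plus strand) a surface glycoprotein. All coordinates are mm9. The genes differ widely in length, from 2.15 kb at Twist1 to 207 kb at Fbn1, and the gene body window includes the 600 bp of the promoter window that lie downstream of the TSS.

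The promoters are of unlike base composition, and 3 are shown to make this visible. The 1.2 kb window around the TSS held 136 CG dinucleotides at Twist1 and 10 at Postn, against a median of 45 over protein-coding genes. Promoter sequences of 300 bases, from 250 before to 50 after the start, were taken from RefSeq (build GRCm38.p6) for the 6 of 10 members matched there and found again letter for letter in mm9. Twist1 had the most CG dinucleotides among them and Postn the fewest, and Tgfb2 lies between and had, with Lox, the lowest promoter ratio of MEFs over ES cells for anti-MacroH2A2. For Postn, which has more than one RefSeq start, the start nearest that of GENCODE is shown. Each is printed 5′ to 3′ on the strand of the gene, with every CG in capitals.
Twist1, chr12:34642286-34642585, plus strand: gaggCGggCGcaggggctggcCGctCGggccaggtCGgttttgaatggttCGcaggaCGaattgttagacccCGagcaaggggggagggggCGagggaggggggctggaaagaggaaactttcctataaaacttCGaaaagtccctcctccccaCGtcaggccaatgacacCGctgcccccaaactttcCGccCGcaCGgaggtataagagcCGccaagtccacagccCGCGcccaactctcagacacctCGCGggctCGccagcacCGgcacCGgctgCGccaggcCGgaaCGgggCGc
Postn, chr3:54164779-54165078, plus strand: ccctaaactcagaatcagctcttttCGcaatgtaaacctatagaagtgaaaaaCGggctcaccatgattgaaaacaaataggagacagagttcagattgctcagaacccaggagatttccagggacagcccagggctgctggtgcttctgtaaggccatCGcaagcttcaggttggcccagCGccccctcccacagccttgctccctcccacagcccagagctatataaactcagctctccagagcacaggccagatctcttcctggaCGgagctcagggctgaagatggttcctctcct
Tgfb2, chr1:188529819-188530118, minus strand: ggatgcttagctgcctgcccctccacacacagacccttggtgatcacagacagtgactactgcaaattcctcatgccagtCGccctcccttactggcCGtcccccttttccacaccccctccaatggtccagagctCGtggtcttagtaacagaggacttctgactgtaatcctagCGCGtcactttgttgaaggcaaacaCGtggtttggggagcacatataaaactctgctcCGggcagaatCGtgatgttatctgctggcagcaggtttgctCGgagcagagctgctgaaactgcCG
The Twist1 sequence holds 27 CG dinucleotides, the Tgfb2 sequence 10 and the Postn sequence 5, where the median of 32851 promoters in the table is 7. The motif TATAAA, searched on both strands, occurs in each of the 3 sequences shown, in 4 of the 6 matched members (not in Fbn1 and Prrx1) and in 13.6% of all promoters. GGGCGG occurs in 2 of the 6, Twist1 and Fbn1, with a share of 35.7% of all promoters, and CAGGTG in 0 of the 6, with a share of 20.2%. These letters describe the windows and say nothing of factors bound there. At Fbn1 the RefSeq start lies 1555 bp inside the 5′ end that GENCODE gives, so that its promoter window was also placed on the start of the transcript with the longest coding sequence. At Vim the RefSeq start lies 384 bp inside, which a window of 300 bp either side does not reach. The transcript of Vim with the longest coding sequence starts only 25 bp from the GENCODE start, so that no window was centred on the RefSeq start.

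Depth ranged from 6448310 to 19869559 distinct intervals, and levels are midpoints per 1000000 distinct intervals, written per M. A level is thus a share of its library, and lower or higher below refers to shares, not to amounts of MacroH2A2. The paper states that MEFs hold more MacroH2A2 than ES cells, and that normalization overestimates the apparent fall at MEF promoters. It calls maintained levels the likely reading of lower values over gene-rich regions. The study states that both of its cell types are male. Among the HA-Macro libraries 1 stood apart: chromosome Y held 0.112% of distinct intervals in HA-Macro ES cells at 3 h but 0.0219% to 0.0244% in the other 3 HA-Macro ES libraries and 0.0198% to 0.0226% in the HA-Macro MEFs. The anti-MacroH2A2 pair also differed, with 0.100% in ES cells and 0.0423% in MEFs, and HA-H3.3 had 0.102% at 3 h and 0.0673% at 6 h. For the counts of members at 3 h and the ratios most affected, values with the ES library of 6 h in place of the 3 h one are also given. What made these libraries differ was not tested, nor was its part in the results. Interval length is 150 bp for HA-Macro and 400 bp for the other 4 libraries, and comparisons were made only within one kind. Each condition has 1 library and no test across samples was run, and the 95% intervals given cover counting error only.

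Promoters of the 10 genes held few MacroH2A2 intervals in every library. In anti-MacroH2A2 ES cells the 10 promoters held 1 to 17 midpoints each, with a median of 0.941 per M, equal to the median of 0.941 over protein-coding genes. In anti-MacroH2A2 MEFs they held 2 to 12, with a median of 0.472 per M against 0.540. In HA-Macro ES cells without Dox, where the tag was not induced, the median was 0.634 per M against 0.592 for all genes, and after 12 h of Dox it was 0.480 against 0.622. Each library is scaled to its own total, and the paper describes the no Dox library as mostly flat background. A ratio to no Dox therefore compares shares and cannot show less tag than in uninduced cells. Summed over the 10 promoters, the level after Dox over that without induction was log2 0.16 (95% interval -0.25 to 0.57) at 3 h and -0.07 (-0.49 to 0.36) at 6 h, both with intervals that include equality, where the medians over all genes were 0.66 and 0.39. At 12 h it was lower: the 10 together held 83 midpoints without Dox and 81 at 12 h, which is 7.02 and 4.58 per M, log2 -0.62 (95% interval -1.08 to -0.16), where the median over all genes was 0.12. Without Thy1 the other 9 held 62 and 72, log2 -0.37 (-0.88 to 0.15), so that the interval below equality depends on that gene. At 3 h the sum without Thy1 lay above that without Dox, with 62 and 121 midpoints, log2 0.48 (0.02 to 0.94). Against no Dox, 2 of 9 members with enough midpoints were lower past 1.5-fold and 4 higher at 3 h, where 10.5% and 53.7% of all promoters were. At 6 h it was 1 lower and 0 higher of 9, against 11.5% and 40.4%, and at 12 h 3 lower and 1 higher of 9, against 15.8% and 28.4%. The 4 higher ones at 3 h were Twist1 (5 midpoints without Dox and 18 at 3 h), Vim (5 and 17), Fn1 (10 and 29) and Tgfb2 (9 and 22), each with an interval that includes equality. The plot of promoter levels shows the same low range in nearly every panel.

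**Figure D1:**
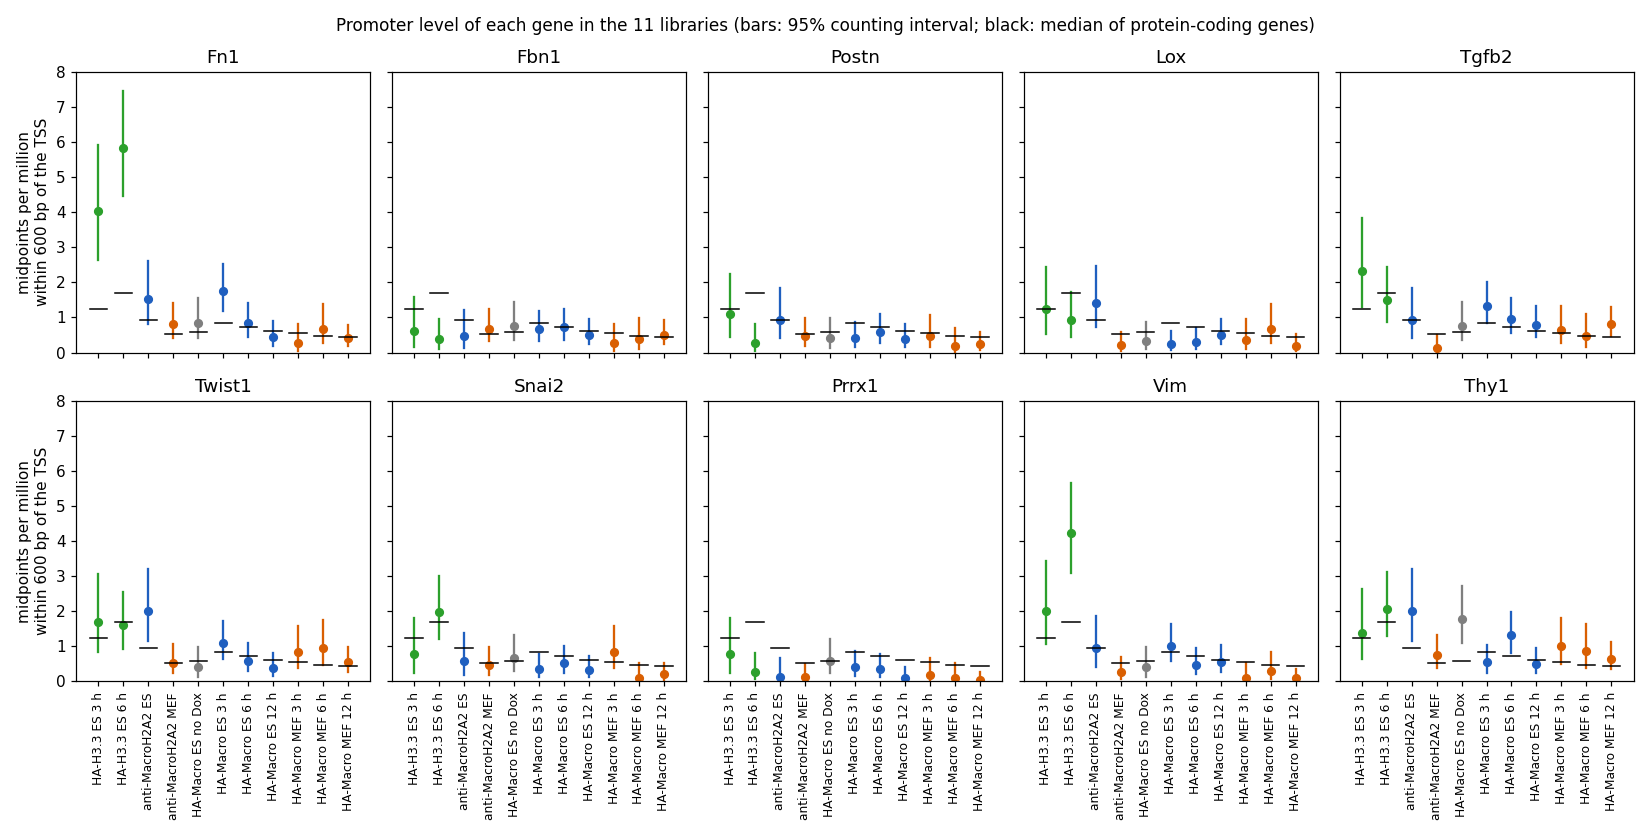
Midpoints per M within 600 bp of the TSS (y axis) for each gene (panels) in the 11 libraries (x axis), with 95% Poisson counting intervals as bars and the median of protein-coding genes as a black tick; blue is ES, orange MEF, green HA-H3.3 and grey HA-Macro ES without Dox. HA-H3.3 at Fn1 (4.03 and 5.82) and at Vim (4.23 at 6 h) reaches the highest values, and the MacroH2A2 values of every gene stay at or below 2.00.

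Fn1 had the most HA-H3.3 at its promoter of the 10 genes at both hours, and Vim came next at 6 h. Fn1 held 26 HA-H3.3 midpoints at 3 h and 62 at 6 h, which is 4.03 and 5.82 per M. Vim held 13 and 45, or 2.02 and 4.23 per M. The medians of protein-coding genes were 1.24 and 1.69 per M, so that both genes lay above them at both hours. At 3 h Tgfb2, with 15 midpoints or 2.33 per M, lay above Vim, and the other 7 ranged from 0.620 at Fbn1 to 1.71 at Twist1. At 6 h the others ranged from 0.282 per M at Postn and Prrx1 to 2.07 at Thy1. From 3 to 6 h, 2 of 8 members with enough midpoints were higher past 1.5-fold, Vim (log2 1.07, interval 0.15 to 2.08) and Snai2 (1.35, -0.10 to 3.11), where 51.5% of all promoters did. Tgfb2 (-0.63) and Postn (-1.95) were lower past 1.5-fold, against 6.41% of all promoters, and the intervals of both lay below the median of all genes, 0.60.

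Between ES cells and MEFs, the share of anti-MacroH2A2 intervals was lower in MEFs at most promoters of the set, as it was at most promoters of the genome. Of the 9 members with at least 10 midpoints in both libraries together, 7 were lower past 1.5-fold and 0 higher, where 58.1% of 17014 protein-coding promoters were lower and 8.71% higher. The median log2 MEF over ES was -1.43 for the 9 and -0.80 for all genes. Lox (chr18:52675723-52689521, minus strand) held 12 midpoints in ES cells and 3 in MEFs, 1.41 and 0.202 per M, log2 -2.80 (interval -5.27 to -0.91). It was the one member whose interval lay wholly below the median of all genes. Tgfb2 held 8 and 2 midpoints, 0.941 and 0.135 per M, log2 -2.80 (-6.08 to -0.48). Twist1 held 17 and 8, 2.00 and 0.540 per M, log2 -1.89 (-3.31 to -0.60), and Thy1 17 and 11, log2 -1.43 (-2.67 to -0.25). These 4 had intervals below equality. Vim (-1.80), Postn (-0.99) and Fn1 (-0.92) were lower past 1.5-fold with intervals that include equality, Snai2 (-0.32) and Fbn1 (0.52) were not past it, and Prrx1, with 1 and 2 midpoints, could not be assessed. With each window placed instead on the start of the transcript with the longest coding sequence, Fbn1 held 27 and 14 midpoints, log2 -1.75 (-2.79 to -0.77), and Lox 14 and 8, log2 -1.61 (-3.07 to -0.26). Then 8 of 9 members were lower past 1.5-fold and 0 higher, against 58.8% and 8.62% of all promoters, and 0 members had an interval clear of the median of all genes, so that the low value of Lox relative to other genes depends on the start used.

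Promoter ratios for HA-Macro varied among the hours. At 3 h, 4 of 8 members were lower in MEFs past 1.5-fold and 2 were higher (Thy1 and Snai2), where 56.8% and 15.3% of all promoters were. With the 6 h ES library in place of the 3 h one the counts were 2 lower and 1 higher of 7, against 47.6% and 14.3%, and the Thy1 ratio turned from 0.91 to -0.37. At 3 h, 3 members had an interval clear of the median of all genes, Fn1 below it and Thy1 and Snai2 above it, and 0 did with the 6 h ES library, nor did any at 6 or 12 h. At 6 h, 6 of 9 were lower and 2 higher (Lox and Twist1), against 48.8% and 13.2%. At 12 h, 4 of 9 were lower and 0 higher, against 43.0% and 15.4%. Vim had the lowest promoter ratio of the members with enough midpoints at 3 and at 12 h, and Snai2 at 6 h (9 and 1 midpoints, log2 -2.50, -7.95 to 0.35). Vim held 17, 8 and 10 midpoints in ES cells at 3, 6 and 12 h and 1, 3 and 2 in MEFs. Its log2 ratios were -3.47 (-8.86 to -0.80), -0.74 (-3.29 to 1.32) and -2.49 (-5.72 to -0.26), so that the interval excluded equality at 3 and 12 h. With the 6 h ES library in place of the 3 h one, Vim held too few midpoints, 8 and 1, to be assessed. Fn1 held 29, 14 and 8 midpoints in ES cells and 3, 7 and 8 in MEFs, and its ratio went from -2.66 (-5.01 to -0.97) at 3 h to -0.17 (-1.78 to 1.45) at 12 h. Against the 6 h ES library the 3 h ratio of Fn1 was -1.59 (-4.03 to 0.25).

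Gene bodies gave larger counts and narrower intervals. For anti-MacroH2A2, 6 of 10 gene bodies were lower in MEFs past 1.5-fold and 0 were higher, where 30.8% and 4.65% of all gene bodies were, with a median of -0.80 for the members and -0.37 for all genes. Twist1 was at -1.19 (-2.04 to -0.35), Vim at -0.97 (-1.55 to -0.39), Snai2 at -0.91 (-2.12 to 0.29), Thy1 at -0.80 (-1.38 to -0.22) and Prrx1 at -0.79 (-1.05 to -0.53). Lox held 70 midpoints in ES cells and 61 in MEFs, with a log2 interval of -1.52 to -0.48. The intervals of Lox, Vim and Prrx1 lay below the median of all genes, and those of Tgfb2 (-0.12) and Postn (0.10) above it. Measured against that median, 3 rather than 6 members were lower past 1.5-fold for anti-MacroH2A2. For HA-Macro, 2 members were lower at 3 h against 51.3% of all gene bodies, 3 at 6 h against 36.2% and 3 at 12 h against 33.8%. At each hour 0 members were higher, against 11.4%, 6.64% and 5.94%. Measured against the median of all genes, the counts for HA-Macro were 2, 0 and 2 lower and 3, 0 and 0 higher, the 3 at 3 h being Tgfb2, Thy1 and Snai2. The share of all gene bodies past the fold by this measure was not counted, so that nothing is drawn from these counts. With the 6 h ES library in place of the 3 h one, 2 members were lower and 0 higher, Fn1 at -0.81 (-1.05 to -0.58) and Vim at -1.10 (-1.86 to -0.39), against 42.9% and 7.25% of all gene bodies. Vim was among the lower ones at each hour, at -1.70, -0.76 and -1.34. Prrx1 was at -0.40, -0.74 and -0.69, and Fn1 at -1.51, -0.71 and -0.55.

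Most regions around the genes differed the other way, with Tgfb2 and Snai2 upstream and Thy1, Twist1, Fn1 and, for anti-MacroH2A2, Snai2 downstream among the exceptions. Most of these flanks are poor in genes. Only those upstream of Tgfb2, Twist1 and Vim and downstream of Thy1 and Fn1 hold the TSS of another protein-coding gene. The paper reports that domains gained in MEFs typically lie in gene-poor regions. Flanks of like gene density were not compared, here or for the body over flanks change below, so the part of this setting was not tested. Over all protein-coding genes the 50 kb upstream had a median log2 MEF over ES of -0.19 for anti-MacroH2A2 and the 50 kb downstream -0.23, while the members had medians of 0.31 and 0.23. At 12 h of HA-Macro the medians were 0.49 and 0.35 for members and -0.28 and -0.30 for all genes. Upstream, 9 of 10 members lay above the median of all genes for anti-MacroH2A2, and 8 of 10 at 12 h. Downstream it was 6 of 10 for anti-MacroH2A2, with Thy1 (-0.60), Snai2 (-0.56), Twist1 (-0.44) and Fn1 (-0.32) below, and 9 of 10 at 12 h. Summed over the 10 genes the downstream change for anti-MacroH2A2 was 0.07 (-0.02 to 0.16). Past 1.5-fold, 1 upstream flank (Fbn1) and 1 downstream flank (Postn) were higher for anti-MacroH2A2, where 4.31% and 4.26% of all such flanks were, and 1 downstream flank (Thy1, -0.60, -0.83 to -0.37) was lower, where 16.7% were. At 12 h, 2 upstream flanks (Fbn1 and Prrx1) and 3 downstream flanks (Fbn1, Postn and Vim) were higher, where 5.14% and 4.98% were, while 1 upstream flank (Tgfb2) was lower, where 18.4% were. The plot of the 4 windows shows most gene bodies left of the zero line and most flanks right of it.

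**Figure D2:**
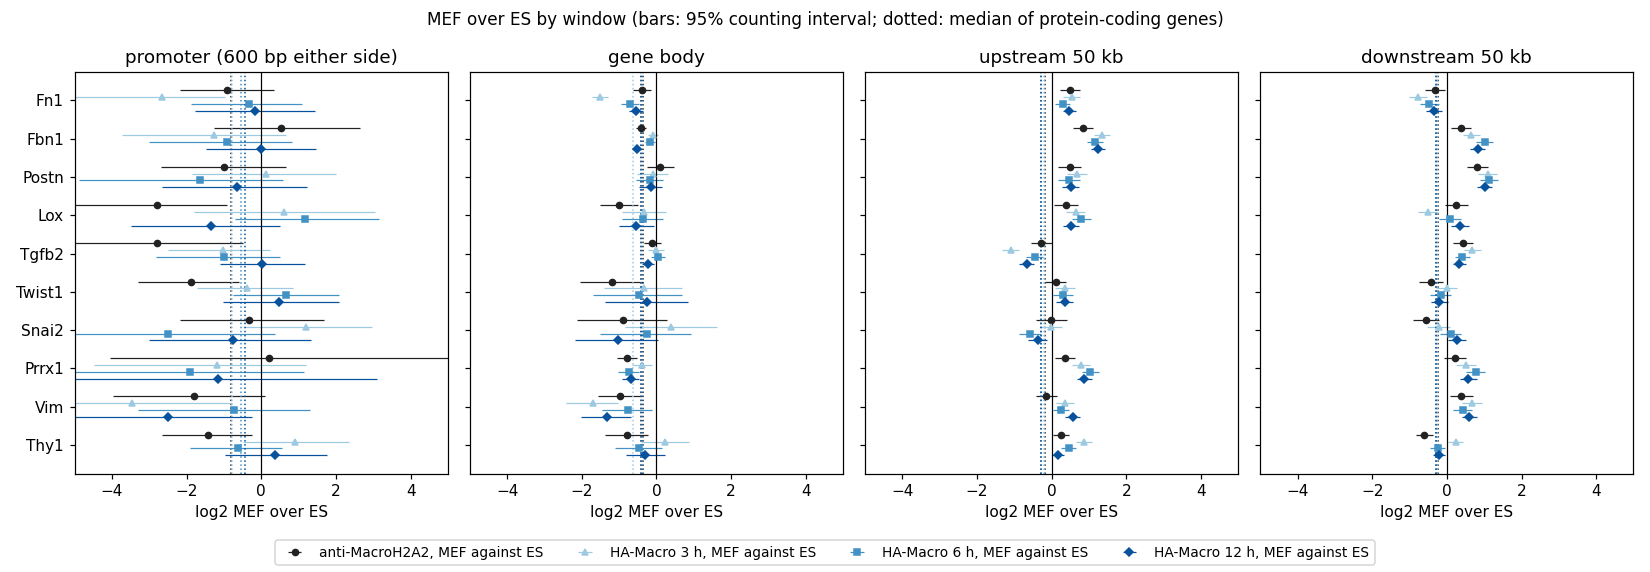
Log2 MEF over ES (x axis, drawn from -5 to 5, so that some promoter intervals run past the edge) for each gene (rows) in 4 windows (panels), with 95% counting intervals as bars; symbols are anti-MacroH2A2 and HA-Macro at 3, 6 and 12 h, and dotted lines are the medians of protein-coding genes. Promoter intervals are wide (Prrx1 for anti-MacroH2A2 rests on 3 midpoints), gene bodies sit mostly below 0, and the flanks of Fbn1, Postn and Prrx1 sit above 0 in all 4 comparisons.

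Fbn1, the longest member, gives an example of the arrangement. Its gene body held 0.416 anti-MacroH2A2 midpoints per kb per M in ES cells and 0.312 in MEFs, log2 -0.42 (-0.56 to -0.28). The 50 kb upstream of it held 0.381 in ES cells and 0.683 in MEFs, log2 0.84 (0.58 to 1.11), and the 50 kb downstream 0.390 and 0.504, log2 0.37 (0.10 to 0.64). In ES cells the body and its surroundings were thus at like levels, and in MEFs the body lay below both sides. The HA-Macro libraries gave the same order: upstream of Fbn1 the level was 0.421 without Dox, 0.315, 0.375 and 0.381 in ES cells at 3, 6 and 12 h, and 0.801, 0.837 and 0.903 in MEFs. Over the Fbn1 gene body it was 0.381 without Dox, 0.326, 0.334 and 0.393 in ES cells and 0.307, 0.296 and 0.272 in MEFs. No ES value upstream reached a MEF value, and no ES value over the body fell to the MEF values. The no Dox library is from ES cells, and a MEF library without Dox was not analysed here. Summed over the 10 genes, gene bodies in ES cells stood at log2 0.04, -0.02 and 0.003 against no Dox at 3, 6 and 12 h. Upstream flanks stood at -0.03, 0.05 and 0.05. Each of these intervals included equality, but single members went both ways. At 3 h gene bodies ranged from log2 -0.54 to 0.83 and upstream flanks from -0.51 to 1.03. The member intervals that excluded equality were 4, 2 and 2 of 10 for gene bodies at 3, 6 and 12 h. Upstream they were 5, 6 and 5 of 10. The medians of all genes were 0.40, 0.15 and 0.10 for bodies and 0.10, 0.17 and 0.17 upstream.

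Prrx1 and Postn, neither of which has the TSS of another protein-coding gene within its flanks, had the same arrangement. The Prrx1 gene body held 0.435 anti-MacroH2A2 midpoints per kb per M in ES cells and 0.252 in MEFs, and its upstream flank 0.388 and 0.498. In the HA-Macro libraries the Prrx1 gene body held 0.303, 0.345 and 0.293 in ES cells at 3, 6 and 12 h and 0.231, 0.207 and 0.181 in MEFs, with 0.350 without Dox. At Postn the body hardly differed, 0.369 in ES cells and 0.397 in MEFs for anti-MacroH2A2 (log2 0.10, -0.27 to 0.48), and the contrast came from its flanks, 0.327 and 0.576 downstream (0.82, 0.54 to 1.10) and 0.306 and 0.426 upstream (0.48, 0.18 to 0.79). At 12 h of HA-Macro the downstream flank held 0.333 in ES cells and 0.675 in MEFs, log2 1.02 (0.82 to 1.22), with 0.413 in ES cells without Dox.

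Bins of 5 kb inside each gene were set against the median bin of its flanks, so that a rise of the flanks alone also moves bins below it. At Postn the median body bin for anti-MacroH2A2 rose from 0.376 per kb per M in ES cells to 0.445 in MEFs. Its median flank bin rose from 0.317 to 0.472. In anti-MacroH2A2 MEFs, 41 of 41 bins inside Fbn1 lay below the median bin of its flanks, against 20 of 41 in ES cells. At Prrx1 it was 13 of 13 in MEFs and 3 of 13 in ES cells, at Fn1 12 of 13 and 5 of 13, at Postn 4 of 5 and 0 of 5, and at Tgfb2 14 of 16 and 8 of 16. HA-Macro at 12 h gave 41 of 41 in MEFs and 23 of 41 in ES cells at Fbn1, 13 and 7 of 13 at Prrx1, 13 and 9 of 13 at Fn1, and 5 and 2 of 5 at Postn. Tgfb2 was the exception, with 9 of 16 in MEFs and 10 of 16 in ES cells. Without Dox, 15 of 41 bins at Fbn1, 10 of 13 at Prrx1 and 10 of 16 at Tgfb2 were below the flank median. At Fn1 it was 5 of 13 and at Postn 1 of 5. At Prrx1 and Tgfb2 most bins thus lay below the flanks in ES cells without induction. Bins were not counted for other protein-coding genes, so that no share of all genes stands beside these counts.

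**Figure D3:**
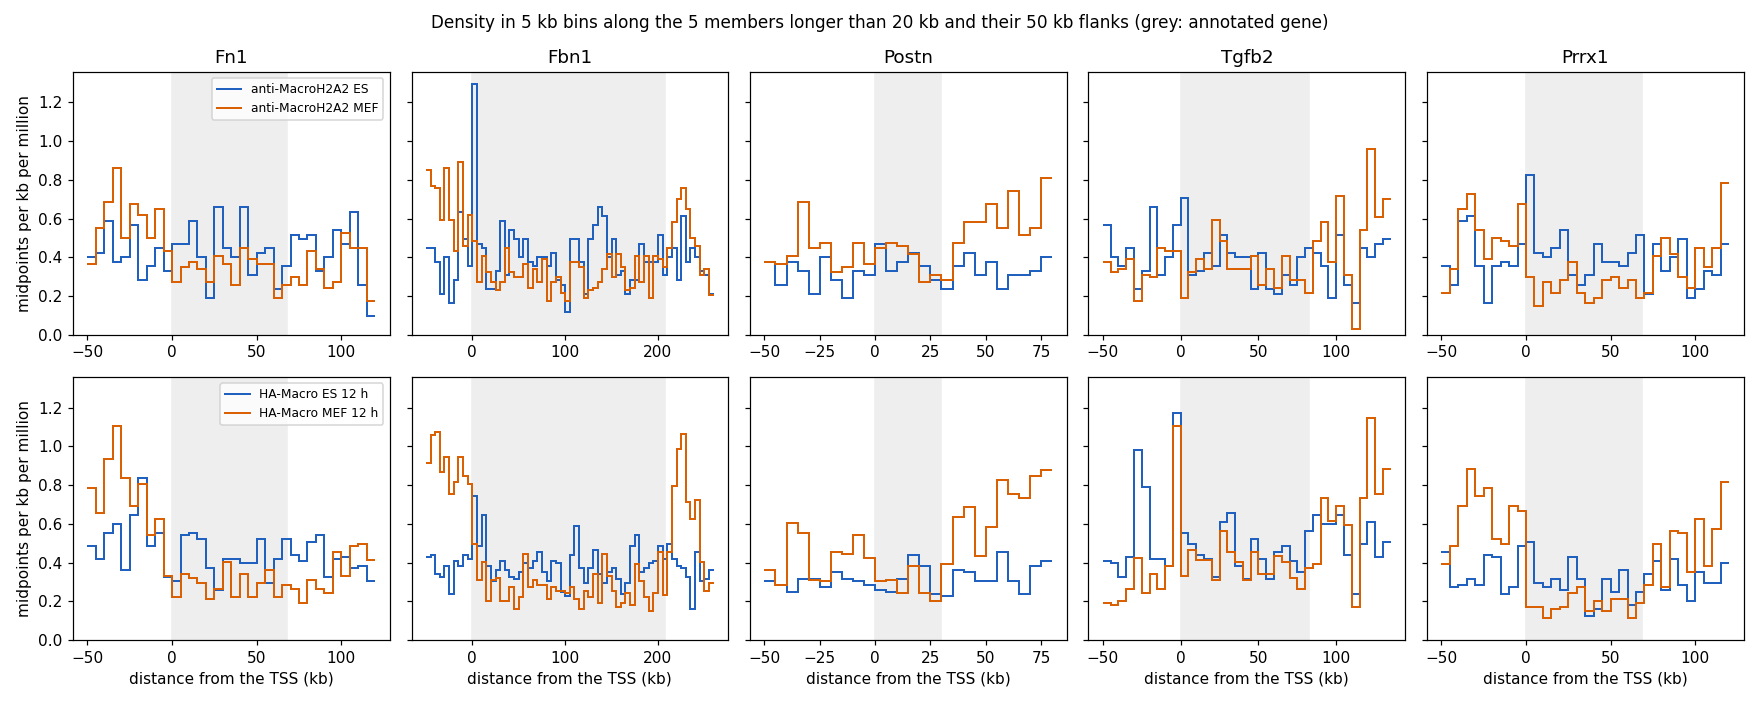
Midpoints per kb per M (y axis) in bins of 5 kb against distance from the TSS (x axis, kb, in the direction of transcription) along the 5 members longer than 20 kb, with the annotated gene in grey; the upper row is anti-MacroH2A2 and the lower row HA-Macro at 12 h, with ES in blue and MEF in orange. At Fbn1 and Prrx1 the orange line runs below the blue one in most bins inside the gene and above it in most bins upstream, and at Tgfb2 the lines stay close inside the gene.

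The pattern was summarised as the density over the gene body divided by that over both flanks, and its change from ES cells to MEFs, a measure in which the total of a library cancels and that was chosen after the values had been seen. For anti-MacroH2A2 the change was below 0 in 10 of 10 members. The median of all genes was itself below 0, at -0.15, and the share of all genes below 0 was not counted. All 10 members also lay below that median. Past 1.5-fold, 7 of 10 were lower and 0 higher, where 14.5% and 4.12% of 19481 protein-coding genes were, with a median of -0.84 for members and -0.15 for all genes. Lox was at -1.31 (-1.85 to -0.77), Vim at -1.09 (-1.68 to -0.50), Prrx1 at -1.08 (-1.40 to -0.76), Twist1 at -1.06 (-1.87 to -0.25) and Fbn1 at -1.04 (-1.27 to -0.81). Their intervals, and that of Fn1 (-0.51, -0.81 to -0.21), lay below the median of all genes, while those of Thy1, Postn, Snai2 and Tgfb2 did not. Snai2 was only just past the fold, at 0.666-fold with a log2 interval of -1.71 to 0.53. Measured against the median of all genes, Thy1 (-0.50) and Snai2 (-0.44) were no longer lower past 1.5-fold.

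The HA-Macro libraries, which share no library with the anti-MacroH2A2 pair, gave 5 of 10 members lower at 3 h, 6 of 10 at 6 h and 7 of 10 at 12 h, with 0 higher. Without subtraction of any median, the shares of all genes were 38.7%, 17.7% and 16.6% lower and 12.9%, 7.33% and 6.84% higher. With the 6 h ES library in place of the 3 h one it was 6 of 10 members lower and 0 higher, against 20.8% and 8.08%. Measured against the median of all genes, which was -0.32 at 3 h, 5, 5 and 6 members were lower, and 2 were higher at 3 h (Tgfb2 and Snai2) and 0 at 6 and 12 h. The share of all genes past the fold by that measure was not counted. At 12 h the median was -0.98 for members and -0.14 for all genes. Vim was lowest at -1.92 (-2.58 to -1.26), followed by Fbn1 at -1.59 (-1.76 to -1.42) and Prrx1 at -1.44 (-1.71 to -1.16), and then by Snai2 (0.499-fold, log2 interval -2.03 to 0.03), Lox at -0.99, Postn at -0.96 and Fn1 at -0.71. Of the 7 members lower at 12 h, 5 were among the 7 lower for anti-MacroH2A2 (Fbn1, Lox, Prrx1, Snai2 and Vim), and Fbn1, Prrx1 and Vim were lower in all 4 comparisons. The share of all genes lower in both was not counted, so that nothing is drawn from this overlap. Tgfb2 was the member nearest to no change, at -0.22 for anti-MacroH2A2 and 0.28, 0.02 and -0.12 for HA-Macro.

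Levels without the ratio of cell types give the same order. In ES cells without Dox the 10 members had a median log2 body over flanks of 0.05, as all genes did. For anti-MacroH2A2 the ES library had 0.57 and the MEF library -0.31, against 0.09 and -0.05 over all genes. For HA-Macro it was -0.06, 0.21 and 0.12 in ES cells at 3, 6 and 12 h and -0.69, -0.62 and -0.86 in MEFs, where all genes had 0.22, 0.01 and -0.03 and then -0.14, -0.12 and -0.15. In MEFs at 12 h, 9 of 10 gene bodies lay below their flanks, and Twist1, with 15 midpoints in its short body, was the exception at 0.05 (-0.79 to 0.79). The median of all genes was below 0 there as well, at -0.15, and the share of all genes below 0 was not counted.

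Tgfb2 and Snai2 had upstream flanks that were not higher in MEFs in any of the 4 comparisons. The Tgfb2 flank, which holds the TSS of the protein-coding gene Rrp15, had MEF over ES ratios below 0 in all 4 comparisons, at log2 -0.27 (-0.55 to 0.01) for anti-MacroH2A2 and -1.10, -0.45 and -0.67 for HA-Macro at 3, 6 and 12 h, with -0.51 at 3 h against the 6 h ES library. The Snai2 flank was below 0 in all 4 as well, at -0.01 (-0.42 to 0.41) and at -0.01, -0.58 and -0.38. In ES cells the Tgfb2 flank held 0.420 per kb per M without Dox and 0.858, 0.568 and 0.573 at 3, 6 and 12 h. The 5 kb just upstream of the Tgfb2 TSS held 23 HA-Macro midpoints without Dox, 104 in ES cells at 12 h and 110 in MEFs at 12 h, or 0.389, 1.18 and 1.11 per kb per M. In ES cells at 12 h this was the highest of the 20 flank bins of Tgfb2, whose median was 0.469. It includes the upstream part of the promoter window. For anti-MacroH2A2 the same 5 kb held 24 midpoints in ES cells and 32 in MEFs, 0.564 and 0.432 per kb per M. Both tagged 12 h libraries thus stood above the ES level without Dox there, and the promoter window showed log2 0.03 (-1.10 to 1.17) between the cell types at 12 h.

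Over time, the share of HA-Macro intervals at the Fn1 promoter fell in ES cells. The paper reads such a fall as one of relative enrichment, while tag builds up in the rest of the genome. Loss of tag from the promoter was not tested. The Fn1 promoter held 29, 14 and 8 midpoints at 3, 6 and 12 h, or 1.75, 0.836 and 0.452 per M, with 10 (0.846) without Dox. From 3 to 12 h the log2 change was -1.95 (-3.29 to -0.79), and from 6 to 12 h it was -0.89 (-2.35 to 0.47), lower past 1.5-fold in both, with an interval clear of equality only against the 3 h library that stood apart. The Fn1 gene body held 908, 565 and 505 midpoints with 365 without Dox, log2 -0.94 (-1.10 to -0.78) from 3 to 12 h and -0.24 (-0.42 to -0.07) from 6 to 12 h. In MEFs the Fn1 gene body changed by 0.02 (-0.23 to 0.27). Over the 9 members tested at promoters in ES cells, 4 were lower and 1 higher past 1.5-fold from 3 to 12 h, against 47.4% and 12.6% of all promoters. From 6 to 12 h it was 5 lower and 1 higher of 9, against 30.6% and 11% (6155 and 2207 of 20124 promoters). In MEFs from 3 to 12 h 4 were lower and 1 higher of 7, against 27.9% and 15.4%. At Snai2 the MEF counts were 9, 1 and 4 midpoints, a log2 change of -2.05 (-4.20 to -0.21) from 3 to 12 h that turned to 1.08 from 6 to 12 h, where the pair holds fewer than 10 midpoints.

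Thy1 was an outlier in the HA-Macro ES library without Dox, where its promoter lay above 99.9% of protein-coding genes. Its promoter held 21 midpoints without Dox, 1.78 per M, and 9, 22 and 9 in ES cells at 3, 6 and 12 h of Dox, or 0.543, 1.31 and 0.509 per M. The log2 change against no Dox was -1.71 (-3.02 to -0.52) at 3 h and -1.80 (-3.11 to -0.62) at 12 h. At 6 h the level lay within 1.5-fold of that without Dox. No gene profile could be ranked as most like these: only 1 gene had at least 20 midpoints in every one of the 11 libraries, and 0 members did.

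Related genes were described by lists of the same families, and their body over flanks change was set beside the members'. For anti-MacroH2A2, 6 of 11 other matrix glycoproteins and proteoglycans were lower in MEFs past 1.5-fold with a median of -0.61, 5 of 13 mesenchymal surface and cytoskeleton genes with -0.48, 2 of 5 mesenchymal transcription factors with -0.47, 2 of 4 lysyl oxidase paralogs with -0.60 and 2 of 9 TGF-beta pathway genes with -0.41. Of these lists 0 genes were higher past 1.5-fold. Over all genes 14.5% were lower and 4.12% higher for anti-MacroH2A2. Microfibril and elastic fibre genes had 1 of 10 lower with a median of -0.22, and collagens 7 of 43 lower and 2 higher with -0.23, nearer to the -0.15 of all genes. At 12 h of HA-Macro the counts were 9 of 11 matrix glycoproteins and proteoglycans, 8 of 13 surface and cytoskeleton genes and 5 of 5 transcription factors, with medians of -1.07, -0.65 and -0.91. Also lower at 12 h were 3 of 4 lysyl oxidase paralogs (-0.87), 4 of 9 TGF-beta pathway genes (-0.58), 3 of 10 microfibril and elastic fibre genes (-0.24), and 12 of 43 collagens with 5 higher (0.05). The share of all genes was 16.6% lower and 6.84% higher, as above, with a median of -0.14. At 6 h, 8 of 11 matrix glycoproteins and proteoglycans were lower (-0.78), 4 of 13 surface and cytoskeleton genes with 1 higher (-0.25), 4 of 5 transcription factors (-0.65), 2 of 4 lysyl oxidase paralogs (-0.53), 5 of 9 TGF-beta pathway genes (-0.60), 2 of 10 microfibril genes (-0.25) and 10 of 43 collagens with 5 higher (0.15), against 17.7% and 7.33% of all genes. At 3 h, where 38.7% and 12.9% of all genes were past the fold, the same lists had 9 of 11 (-1.18), 7 of 13 with 1 higher (-0.62), 4 of 5 (-1.37), 1 of 4 (-0.02), 6 of 9 (-1.01), 3 of 10 (-0.08) and 12 of 43 with 9 higher (0.15). Pluripotency genes, as a contrast, had 1 of 17 lower and 2 higher for anti-MacroH2A2 with a median of 0.04, and 0 lower and 7 higher at 12 h with 0.46. At 6 h they had 2 lower and 4 higher, with 0.31. At 3 h the contrast was not seen in these counts: the pluripotency genes had 10 of 17 lower and 1 higher with a median of -0.63, and the members 5 of 10 lower with -0.75. With the 6 h ES library in place of the 3 h one the pluripotency genes had 1 lower and 4 higher, with 0.14, against 20.8% and 8.08% of all genes. None of these lists holds a member. Like the members they were chosen with earlier results of these data known, and the study itself names collagen and matrix genes, so that their counts are no independent evidence of a direction.

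**Figure D4:**
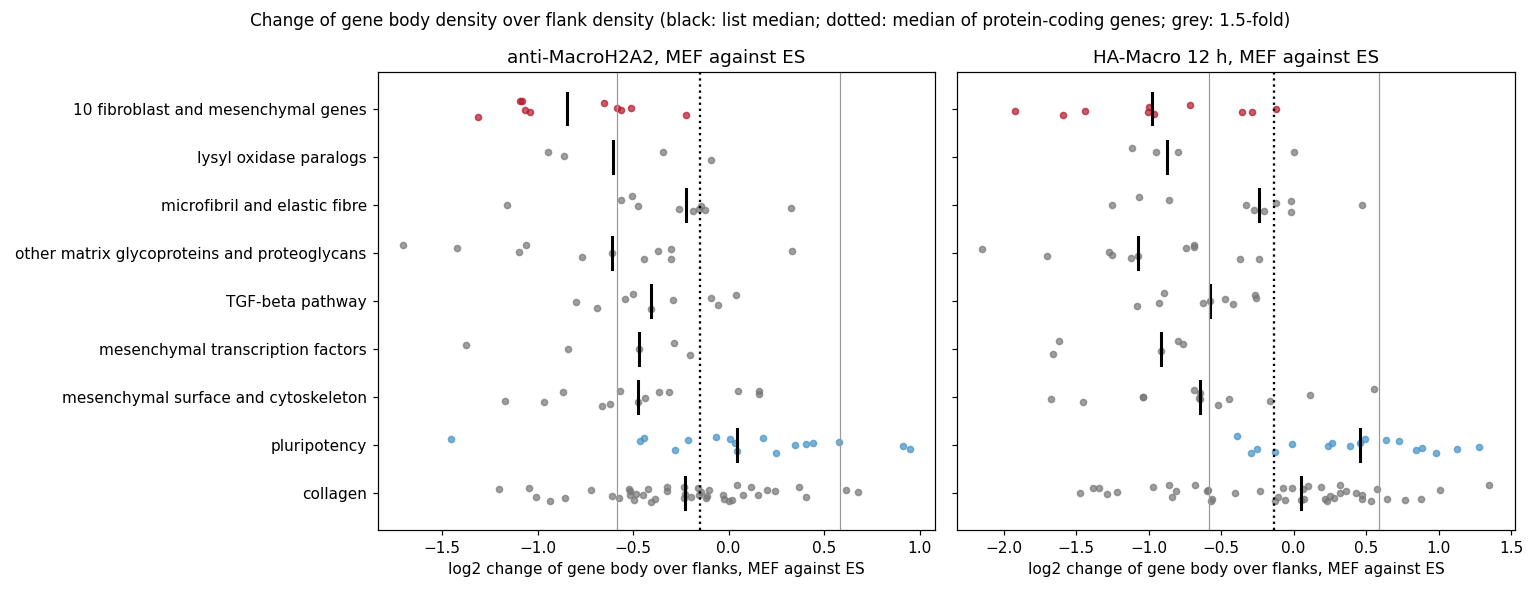
Log2 change from ES to MEF of gene body density over flank density (x axis) for each gene of the 10 fibroblast and mesenchymal genes (red), of related lists (grey) and of pluripotency genes (blue), for anti-MacroH2A2 (left) and HA-Macro at 12 h (right); black bars are list medians, the dotted line the median of protein-coding genes and grey lines 1.5-fold. The red points have medians of -0.84 and -0.98 and the blue ones of 0.04 and 0.46.

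At promoters, where 58.1% of all genes were lower and 8.71% higher for anti-MacroH2A2 with a median of -0.80, the related lists varied. Microfibril and elastic fibre genes had 7 of 10 lower and 1 higher (median -0.66), other matrix glycoproteins and proteoglycans also 7 of 10 and 1 higher (-0.76), mesenchymal transcription factors 3 of 4 (-0.87), surface and cytoskeleton genes 10 of 11 (-1.29) and collagens 17 of 35 with 2 higher (-0.48). Of TGF-beta pathway genes 8 of 9 were lower for anti-MacroH2A2 with a median of -1.39, led by the signal transducer Smad2 (14 midpoints in ES cells and 3 in MEFs, log2 -3.02, -5.46 to -1.18) and the inhibitory Smad7 (17 and 4, -2.89, -4.92 to -1.27). The Lox paralogs Loxl1 (30 and 17, -1.62), Loxl2 (16 and 7, -1.99) and Loxl4 (13 and 6, -1.92) were lower past 1.5-fold, 3 of the 3 tested. Pluripotency genes had 3 of 15 lower and 1 higher. The lower ones were the transcription factors Klf2 (28 midpoints in ES cells and 12 in MEFs, -2.02), Tbx3 (10 and 5, -1.80) and Klf4 (16 and 12, -1.22), each with an interval below equality, and the higher one was Tdgf1, a co-receptor of Nodal signalling (2 and 16, 2.20, 0.11 to 5.36). The median over the pluripotency list was 0.07 against -0.80 for all genes.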

How the data were processed

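The deposited tables list mapped ChIP-Seq intervals by chromosome, first base and last base, with no count, strand or score. The authors mapped reads to mm9 with Bowtie 1.0 (per the labels) allowing at most 1 mismatch, placed each multi-mapping read at a single randomly drawn location, and lengthened reads toward their 3′ end, so that repeated genes share reads. Identical intervals were collapsed here, since the anti-HA HA-Macro libraries held 3.27% to 6.00% repeats and the others 0.462% to 0.693%. Midpoints were counted in each window and expressed per 1000000 distinct intervals on chromosomes 1 to 19, X and Y.

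Samples were grouped by the labels alone. Ratios carry exact conditional binomial (Clopper-Pearson) 95% intervals, levels exact Poisson intervals, and the body over flanks change a normal interval on the log scale. A gene was tested with at least 10 midpoints in both libraries together and called past 1.5-fold. Genes with a TSS in the discarded tiles (633 of 22367) were left out. No p-value was computed. The intervals were tried on simulated counts that held counting error alone, which says nothing of variation between libraries. Alternatives were the scaling, the fold, the minimum, repeats kept, libraries reduced to the smallest, other windows and other libraries. The members and lists were chosen with earlier results of these data known. All 10 members are named. Genes of other lists are named where promoter ratios for anti-MacroH2A2 pass 1.5-fold with an interval that excludes equality, and Smad, Lox paralog and pluripotency examples were picked from those after their values were seen. Python 3.11.15, numpy 2.4.6, scipy 1.17.1, pandas 2.3.3 and matplotlib 3.10.9 were used.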

Additional observations from a re-analysis of the deposited data

Results flagged for a closer look

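The gene body of Fbn1 changed in opposite directions in the 2 cell types between 3 and 12 h of HA-Macro. In ES cells log2 12 h over 3 h was 0.27 (0.15 to 0.38), from 1122 to 1441 midpoints, and in MEFs it was -0.18 (-0.31 to -0.04), from 688 to 1120. The MEF change lay 0.44 below the ES change on the log2 scale, with a counting interval of the difference, MEF minus ES, of -0.62 to -0.26. With 1 library per condition the difference was not tested across samples, and the ES value uses the 3 h library that stood apart on chromosome Y. From 6 to 12 h, without that library, the changes were 0.23 (0.12 to 0.35) in ES cells and -0.12 (-0.27 to 0.02) in MEFs, where the interval includes equality.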

How the results depend on the processing

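Values here are numbers of the 10 members past the fold, unless a log2 ratio is named, and the cause of a change was not tested beyond what a setting does by construction. Of 294 alternative counts, 235 stayed within 1.5 times the reported count and 59 did not, most of them at promoters, where 1 or 2 midpoints decide a call. At promoters for anti-MacroH2A2, MEF against ES, 3 were lower with at least 20 midpoints, 4 with libraries reduced to the smallest and 4 with 300 bp windows, and 1 was higher when scaled to the median of all genes, which here means that the median log2 ratio of all genes was subtracted. At promoters for HA-Macro at 3 h, 2 were lower when scaled to that median, with at least 20 midpoints, and with the ES 6 h library in place of 3 h; 1 was higher at 2-fold, with at least 20 midpoints, with 300 bp windows and with the ES 6 h library, and 0 with 1 kb windows. At 6 h, 2 were lower when scaled or with at least 20 midpoints, 3 at 2-fold and 1 in reduced libraries; 1 was higher with repeats kept, at 2-fold, with at least 20 midpoints and at the other transcript start, and 0 in reduced libraries and with 300 bp or 1 kb windows. At 12 h, 2 were lower when scaled or at 2-fold and 0 with at least 20 midpoints, in reduced libraries and with 300 bp windows, while 2 were higher when scaled and 1 with 300 bp windows. From 3 to 12 h in ES cells, 2 were lower when scaled or at 2-fold, and 0 were higher with at least 20 midpoints, in reduced libraries, with 300 bp or 1 kb windows and at the other start. In MEFs, 2 were lower when scaled, with at least 20 midpoints or with 300 bp windows and 1 at 2-fold or in reduced libraries, while 2 were higher when scaled and 0 at 2-fold, with at least 20 midpoints, in reduced libraries, with 1 midpoint added and with 300 bp or 1 kb windows.

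Over gene bodies, 3 were lower for anti-MacroH2A2 when scaled and 2 at 2-fold; at 6 h of HA-Macro 0 were lower when scaled or at 2-fold, and at 3 h 3 were higher when scaled and 1 in reduced libraries. For the gene body over flanks, whose settings were all chosen after seeing the data, 4 were lower at 12 h at 2-fold, 2 were higher at 3 h when scaled and 1 in reduced libraries, and 1 was higher at 6 h in reduced libraries. Of the promoter log2 ratios past 1.5-fold, those that changed sign were Thy1 at 3 h with the ES 6 h library (-0.37), Lox (-0.91) and Vim (0.087) at 6 h with 300 bp windows, Vim from 3 to 12 h in ES cells with 300 bp windows (0.64) or from 6 h (0.24), and Postn (0.40) and Snai2 (1.08) in MEFs from 6 h. Smaller ratios changed sign as well, among them Fbn1 at the other start (-1.75 for anti-MacroH2A2 and 0.23 from 3 to 12 h in ES cells), Fn1 at the other start at 12 h (0.026), Fn1 in MEFs from 6 h (-0.73), and Twist1 (0.48) and Postn (-0.37) at 3 h with the ES 6 h library.

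No paired analysis was possible because each condition has 1 library, and for the same reason no replicate was left out. The counting intervals hold no variation between cultures or antibodies, and promoters with under 10 midpoints were not assessed. A MEF library without Dox was not analysed here.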
